A study of Rattus norvegicus with 18 samples.

Results

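Interferon response genes are described here in the left ventricle of the rat. They were taken by symbol: the interferon (Ifn), Ifi, Ifit, Ifitm, Irf, Oas, Gbp, Mx, Isg and Stat families, Parp9 to Parp14, and Ubd, Rsad2, Bst2, Rtp4, Ddx58, Dhx58, Zbp1, Xaf1 and Ddx60. The choice by symbol found 35 genes among the 6588 genes in any of the 3 tables used here. Every gene in these tables had passed the authors' DESeq2 test, with an adjusted p under 0.05 and a fold that was 2 or more, or 0.5 or less, so each of the 35 had changed in at least 1 comparison.

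Polyadenylated left ventricular RNA came from 18 male rats, 6 in each of 3 groups. WKY (Wistar Kyoto) rats are the control strain, ZSF1 Lean rats the hypertensive group, and ZSF1 Obese rats the group with hypertension and metabolic syndrome that stands for heart failure in which the ejection fraction is preserved (HFpEF). As background, ZSF1 rats are hybrids of a Zucker diabetic fatty parent and a spontaneously hypertensive heart failure parent, and the obese animals inherit a defective leptin receptor allele from each. Both ZSF1 groups therefore differ from WKY in strain as well as in blood pressure. No treatment is named, and the sources used here give no ages. The tables give a fold and an adjusted p per gene and no value per rat, so depth and the spread between rats are unknown here, and a gene that is not in a table may have been unchanged or undetected.

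Interferons are secreted signals of infection and tissue damage. Type I and type III interferons act through paired receptors, Janus kinases and a complex of signal transducers with Irf9 that binds the interferon-stimulated response element (ISRE) in target promoters. Interferon gamma acts through its own receptor pair and leads to binding at the gamma-activated site (GAS). Target genes encode proteins that block viral entry, sense or degrade foreign RNA, attack membranes of vacuoles holding pathogens, and present antigen. In the heart these genes can be expressed by myocytes, endothelium, fibroblasts and resident leukocytes.

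In obese hearts most of these genes that were in a table rose, and a small set led by Gbp1 fell. Against lean hearts 28 of the genes were in the authors' deposited table, of which 26 rose and 2 fell. Of all its genes, 53.4% rose and 46.6% fell. Against WKY 32 were in the authors' deposited table, with 27 higher and 5 lower, where 54.0% of all genes of the table rose and 46.0% fell. Lean hearts against WKY gave 4 genes in the authors' deposited table, 2 of them higher and 2 lower, where 63.9% of all genes of the table rose and 36.1% fell. The rises against lean hearts were mostly modest: their median fold was 2.62, beside 3.01 for all genes that rose in the authors' deposited table, and 15.4% of them reached a fold of 4, beside 26.5% of all. Against WKY the median rise was 2.89, beside 3.05 for all genes that rose in the authors' deposited table, and 29.6% of the rises reached a fold of 4, beside 28% of all.

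**Figure D1:**
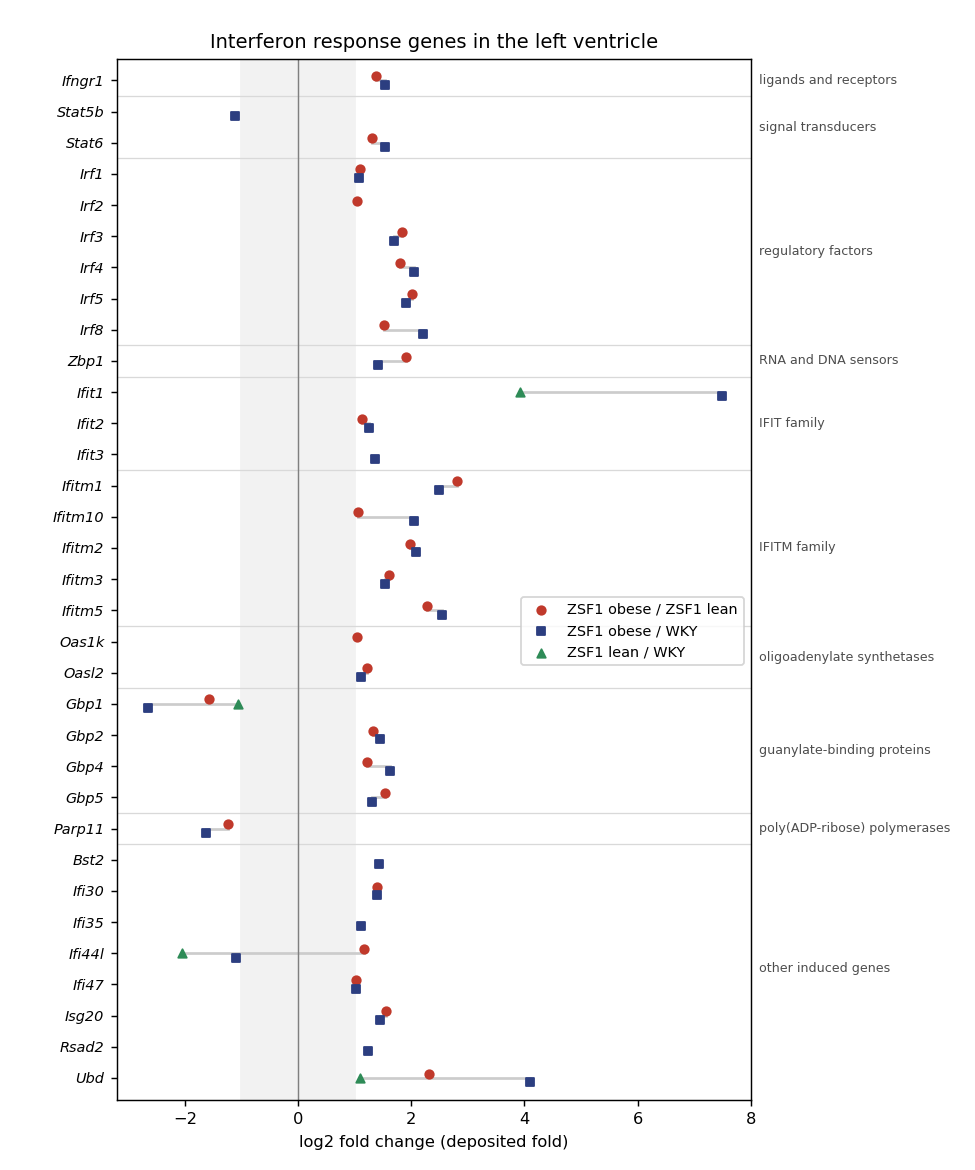
Each row is 1 of 33 of the genes, grouped by role, and the horizontal axis is the log2 of the deposited fold. Red circles are ZSF1 obese over ZSF1 lean, blue squares ZSF1 obese over WKY and green triangles ZSF1 lean over WKY; a missing marker means that the gene was not in that table. The grey band covers folds between 0.5 and 2, which no table holds. Most markers lie between 1 and 3, while Ifit1 reached 7.49 over WKY and Gbp1 stood at -2.65.

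The RefSeq annotation holds 98 protein-coding symbols that meet the same choice, and all 35 genes matched it by symbol. Of these 98, the table of obese against lean hearts held 28.6%, beside 22.8% of all RefSeq protein-coding symbols. The table of obese against WKY held 32.7%, beside 22.9%. In lean against WKY the shares were 4.08% and 0.881%. The 63 symbols in no table used here include many that are textbook reporters of type I interferon: Isg15, a ubiquitin-like modifier, Mx1 and Mx2, dynamin-like GTPases that block viral replication, Irf7, the amplifier of interferon alpha production, Irf9, Stat2, Ifi27, Ifi44, Rtp4, Xaf1, Ddx60, Dhx58, Parp9 and Parp14. The genes in the tables are thus a part of those chosen, with members of the IFIT, IFITM, Irf and Gbp families present and the Mx genes absent. Most RefSeq protein-coding symbols of any kind were likewise absent from each table, and an absent gene may have been undetected. Absence therefore does not show which part of the interferon response changed.

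**Figure D2:**
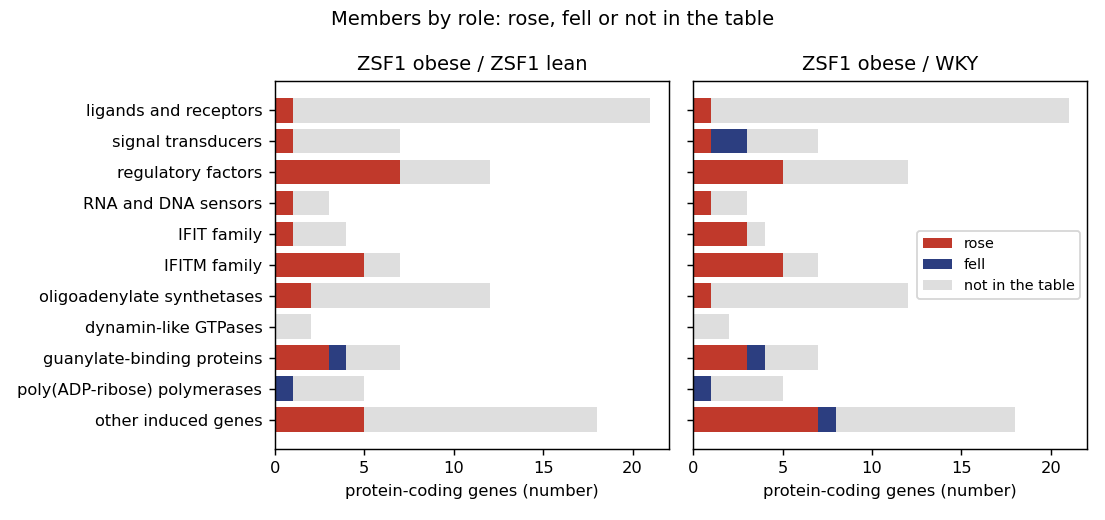
Horizontal bars count the RefSeq protein-coding genes of each role group, split into genes that rose (red), fell (blue) or were not in the table (grey), for ZSF1 obese over ZSF1 lean (left) and over WKY (right). The regulatory factors show 7 and 5 rises among 12, the IFITM family 5 and 5 among 7, and the dynamin-like GTPases none among 2. The 12 include Irf2bp1, Irf2bp2 and Irf2bpl, Irf2-binding proteins that the symbol pattern takes in and that are in no table.

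Some of the genes chosen by symbol have known roles outside the interferon response. Ifitm5 is a bone-forming cell gene, Ifitm10 has no established antiviral role, and Stat5b and Stat6 serve growth hormone and interleukin 4 signals among others. Without these 4, a choice made after the values were seen, the counts were 23 rises and 2 falls against lean hearts and 24 rises and 4 falls against WKY.

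Promoters show which of these genes carry the letters that interferon-activated factors are known to bind. RefSeq promoter windows of 300 bases (250 before the annotated start and 50 after it, build GRCr8, a BN rat and not WKY or ZSF1) were matched by symbol for 28 of the 35 genes, as 31 windows. The ISRE core was searched on both strands as GAAA, 2 bases of any kind and GAAA (on the other strand TTTC, 2 bases and TTTC), and the GAS as TTCNNNGAA, which reads alike on both strands; matches of the same motif may overlap. An ISRE match lay in 12 of the 31 windows, 38.7%, beside 3.92% of all 33469 promoter windows. A GAS match lay in 6 windows, 19.4%, beside 8.87% of all. Of the 52 windows of protein-coding genes that meet the choice but are in no table, 42.3% held an ISRE match and 25% a GAS match, so both shares were as high among genes of the family that are in no table. A match is a description of letters in a window.

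The stretches below were chosen among genes with a match. They belong to rising antiviral genes (Ifit3, Rsad2, Bst2), to rising Ifitm and Gbp genes and to Irf1, an early interferon gamma target. Gbp1 and Ifi44l, also shown, fell in at least 1 comparison. Of the genes with the largest folds, Ifit1 and Ifitm1 had no window, and the window of Ubd held no match of either motif. The stretches run 5′ to 3′ along the gene, with the ISRE match (for Irf1 the GAS match) in capitals.
Ifit3: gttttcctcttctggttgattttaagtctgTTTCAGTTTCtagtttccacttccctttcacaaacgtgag
Rsad2: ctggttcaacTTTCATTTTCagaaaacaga
Bst2: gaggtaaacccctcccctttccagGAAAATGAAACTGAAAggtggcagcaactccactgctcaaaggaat
Ifitm2: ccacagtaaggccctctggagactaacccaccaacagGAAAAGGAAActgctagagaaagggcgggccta
Ifitm3: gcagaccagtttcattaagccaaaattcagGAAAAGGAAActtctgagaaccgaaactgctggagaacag
Gbp2: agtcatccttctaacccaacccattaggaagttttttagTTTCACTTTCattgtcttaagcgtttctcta
Gbp5: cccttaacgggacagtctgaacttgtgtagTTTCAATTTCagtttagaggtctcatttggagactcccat
Gbp1: tgagGAAAAAGAAACTGAAActcaggagag
Ifi44l: ttccagtgagGAAAATGAAAgtaaagggca
Irf1: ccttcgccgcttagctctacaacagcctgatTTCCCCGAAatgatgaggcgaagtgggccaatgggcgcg
In GRCr8 the Ifit3 stretch is chr1:241527252-241527321 on the plus strand, Rsad2 chr6:48788248-48788277 on the minus strand and Bst2 chr16:18255053-18255122 on the minus strand. The Ifitm2 stretch is chr1:205482349-205482418 and that of Ifitm3 chr1:205541763-205541832, both on the minus strand. Those of Gbp2 (chr2:234005657-234005726), Gbp5 (chr2:233910913-233910982), Gbp1 (chr2:234072291-234072320), Ifi44l (chr2:243328654-243328683) and Irf1 (chr10:38417762-38417831) are on the plus strand. All lie before the annotated start that the window was built on. The Gbp1 and Ifi44l stretches lie inside the annotated gene, before a later start than its first. Ifitm2 and Ifitm3 share the same ISRE letters, and in Bst2 and Gbp1 a pair of ISRE matches overlaps.

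**Figure D3:**
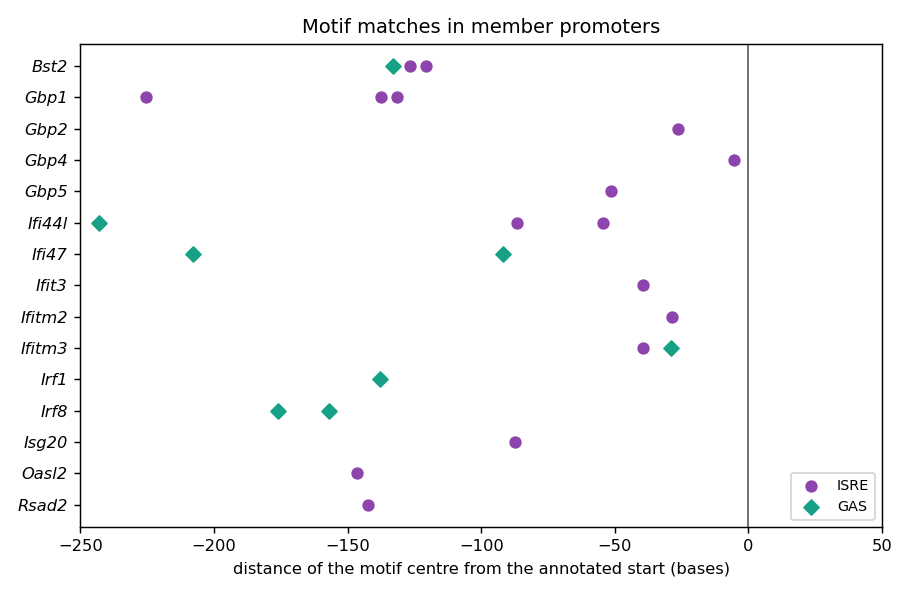
Each row is a gene with at least 1 match, and the horizontal axis is the distance in bases of the centre of the match from the annotated start. Purple circles are ISRE matches and green diamonds GAS matches, on either strand. ISRE matches of Ifit3, Ifitm2, Ifitm3, Gbp2, Gbp4 and Gbp5 lie between positions -56 and -1, next to the start, and no match lies after it.

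Of ligands and receptors, only Ifngr1, the ligand-binding chain of the interferon gamma receptor, was in a table. It rose against lean hearts with a fold of 2.60 (adjusted p = 3.02e-34) and against WKY with a fold of 2.91 (adjusted p = 1.74e-36) in the authors' deposited tables. None of the other 20 symbols of this group was in a table, among them Ifng, Ifnb1, the interferon alpha genes and the receptor chains Ifnar1, Ifnar2 and Ifngr2. A receptor chain for interferon gamma was thus higher in obese hearts, while no interferon transcript was in a table.

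Among the signal transducers the directions were mixed. Stat6, the factor of interleukin 4 and 13 signalling, rose with a fold of 2.46 against lean hearts (adjusted p = 2.10e-48) and 2.89 against WKY (adjusted p = 8.56e-26) in the authors' deposited tables. Stat5b, a factor of growth hormone and cytokine signalling, was in the obese against WKY table alone, at 0.460 of the WKY level (adjusted p = 7.43e-31) in the authors' deposited table. Of the 3 transducers in the authors' deposited table against WKY, 1 rose and 2 fell; 1 of those that fell is not reported by name.

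Interferon regulatory factors rose in both obese comparisons and none fell. Against lean hearts all 7 that were in the authors' deposited table rose, with folds of 2.07 to 4.06, and against WKY all 5 rose, with folds of 2.11 to 4.59. Irf3, the factor that sensors of nucleic acid activate to start interferon production, had a fold of 3.56 against lean hearts (adjusted p = 9.72e-67) and 3.23 against WKY in the authors' deposited tables. Irf2, a repressor of interferon targets, had a fold of 2.07 against lean hearts (adjusted p = 7.98e-41) in the authors' deposited table and was not in that against WKY. Irf1, its activating counterpart, stood at nearly the same fold in both, 2.14 against lean and 2.11 against WKY in the authors' deposited tables.

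The factors best known from leukocytes, Irf4, Irf5 and Irf8, rose in both obese comparisons. Irf5, which drives inflammatory cytokines in macrophages, had folds of 4.06 (adjusted p = 1.20e-12) and 3.76 against lean and WKY hearts in the authors' deposited tables. Irf8, needed for monocytes and dendritic cells, had 2.87 against lean and 4.59 against WKY (adjusted p = 1.83e-20) in the authors' deposited tables. For Irf4, a factor of lymphocytes and dendritic cells, the authors' deposited tables gave 3.51 and 4.14 (adjusted p = 2.08e-05). All 3 of these factors had a larger fold than Irf1 in both comparisons, but against lean hearts Irf3, at 3.56, lay above Irf4 and Irf8 in the authors' deposited table. Against WKY hearts Irf3, at 3.23 in the authors' deposited table, lay below all 3. Differences between these folds were not tested.

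Of the RNA and DNA sensors in the choice by symbol (Ddx58, Dhx58, Zbp1 and Ddx60), Zbp1 alone was in a table. It binds Z-form nucleic acid and can start necroptosis. Obese hearts had 3.73 times the lean level (adjusted p = 0.00232) and 2.66 times the WKY level (adjusted p = 0.0229) in the authors' deposited tables, the largest adjusted p of these genes in each. The second of these is the only value of the 35 genes that a limit of 0.01 on the adjusted p would remove.

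The IFIT genes, whose proteins bind foreign RNA and stall its translation, differed widely in size. Ifit1 (ENSRNOG00000019050) had a fold of 179.8 over WKY hearts (adjusted p = 3.83e-72), which was rank 1 of the 5709 genes in the authors' deposited table. Ifit2 had a fold of 2.40 and Ifit3 one of 2.57 in the same authors' deposited table. In the RefSeq order Ifit2, Ifit3, Ifit1bl and Ifit1 follow one another with no coding gene between them, and Ifit1bl, which lies next to Ifit1, was in no table. Ifit1 and Ifit1bl are similar in name and place, and the sources used here do not say how reads that fit both were counted. The authors' deposited table against lean hearts gave Ifit2 a fold of 2.19 and held neither Ifit1 nor Ifit3.

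The 5 IFITM genes in the tables rose in both obese comparisons. Ifitm1, Ifitm2 and Ifitm3 encode small membrane proteins that hold back the fusion of viruses with cell membranes. Ifitm1 had the largest fold of the 28 genes against lean hearts, 6.96 (adjusted p = 1.31e-63), and one of 5.62 against WKY (adjusted p = 5.49e-51) in the authors' deposited tables. Ifitm2 had folds of 3.92 (adjusted p = 8.88e-71) and 4.23 (adjusted p = 4.72e-44), and Ifitm3 folds of 3.03 and 2.91, in the authors' deposited tables. Ifitm5, Ifitm2, Ifitm1 and Ifitm3 follow one another in the RefSeq order, so these rises come from 1 cluster of near neighbours. Ifitm5 had folds of 4.82 (adjusted p = 0.000155) and 5.82 (adjusted p = 2.65e-05) in the authors' deposited tables. Ifitm10, which is not in that run, rose less against lean hearts, with a fold of 2.08, than against WKY, with one of 4.11 (adjusted p = 8.98e-17), in the authors' deposited tables; the difference between these folds was not tested.

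Oligoadenylate synthetases make the second messenger that switches on the RNA-cutting enzyme RNase L. Oasl2, a member of this family, had folds of 2.33 and 2.17 in the authors' deposited tables of obese against lean and WKY hearts. Oas1k had a fold of 2.07 against lean hearts in the authors' deposited table, where its row is described as another gene of the same array, so its identity is uncertain. The other 10 synthetase symbols were in no table, Oas1a, Oas2 and Oas3 among them.

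Guanylate-binding proteins, large GTPases that coat vacuoles and membranes of pathogens and are classical interferon gamma targets, split in direction. Gbp2, Gbp4 and Gbp5 rose against lean hearts, with folds of 2.50, 2.33 and 2.91 in the authors' deposited table. Against WKY they rose with folds of 2.73, 3.10 and 2.46 in the authors' deposited table. Gbp1 fell in all 3 comparisons.

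For Gbp1 the authors' deposited tables gave 0.337 of the lean level (adjusted p = 4.00e-39) and 0.159 of the WKY level (adjusted p = 1.06e-102) in obese hearts, and 0.48 of the WKY level in lean hearts (adjusted p = 9.76e-25). Its adjusted p against WKY was the smallest of the 32 genes. Gbp5, Gbp7, Gbp4, Gbp2 and Gbp1 follow one another in the RefSeq order, so the gene that fell lies beside genes that rose. Gbp genes are alike in sequence and the handling of shared reads is not stated, so the split of values among them is uncertain. Of the annotated starts of Gbp1, 1 has 3 ISRE matches before it, of which the overlapping pair is in the stretch shown above. The window of the other start has none.

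Among the poly(ADP-ribose) polymerases only Parp11, which modifies the interferon alpha receptor machinery, was in a table. It fell to 0.426 of the lean level (adjusted p = 3.51e-05) and to 0.323 of the WKY level (adjusted p = 1.07e-07) in obese hearts in the authors' deposited tables. Parp9, Parp10, Parp12 and Parp14 were in none.

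Ubd, a ubiquitin-like protein induced by interferon gamma and tumour necrosis factor, rose in all 3 comparisons. The authors' deposited tables gave folds of 4.99 for obese against lean hearts (adjusted p = 1.36e-25), 17.1 for obese against WKY (adjusted p = 2.44e-22) and 2.13 for lean against WKY (adjusted p = 8.26e-05). It ranked 29 from the top of the 5709 genes in the authors' deposited table against WKY.

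Ifi44l, an interferon-induced gene that restrains the response itself, changed direction with the comparison. In lean hearts its level was 0.24 times that of WKY (adjusted p = 2.60e-38), rank 3 from the bottom of the 233 genes in the authors' deposited table. In obese hearts it was above the lean level, with a fold of 2.23 (adjusted p = 1.67e-07), but still at 0.470 of the WKY level (adjusted p = 5.25e-06) in the authors' deposited tables. Its order was therefore WKY highest, obese next and lean lowest. Its neighbour Ifi44 was in no table.

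The remaining induced genes rose. Ifi30, a lysosomal reductase that opens antigens for presentation, had folds of 2.64 and 2.62 against lean and WKY hearts in the authors' deposited tables. Isg20, an exonuclease that degrades RNA, had folds of 2.95 and 2.71, and Ifi47, an interferon gamma-inducible GTPase, one of 2.04 in both, in the authors' deposited tables. Bst2, or tetherin, which holds budding virus at the cell surface, had a fold of 2.69 against WKY in the authors' deposited table. In the same authors' deposited table Rsad2, or viperin, had a fold of 2.36 and Ifi35 one of 2.16, and none of these last 3 genes was in the table against lean hearts.

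**Figure D4:**
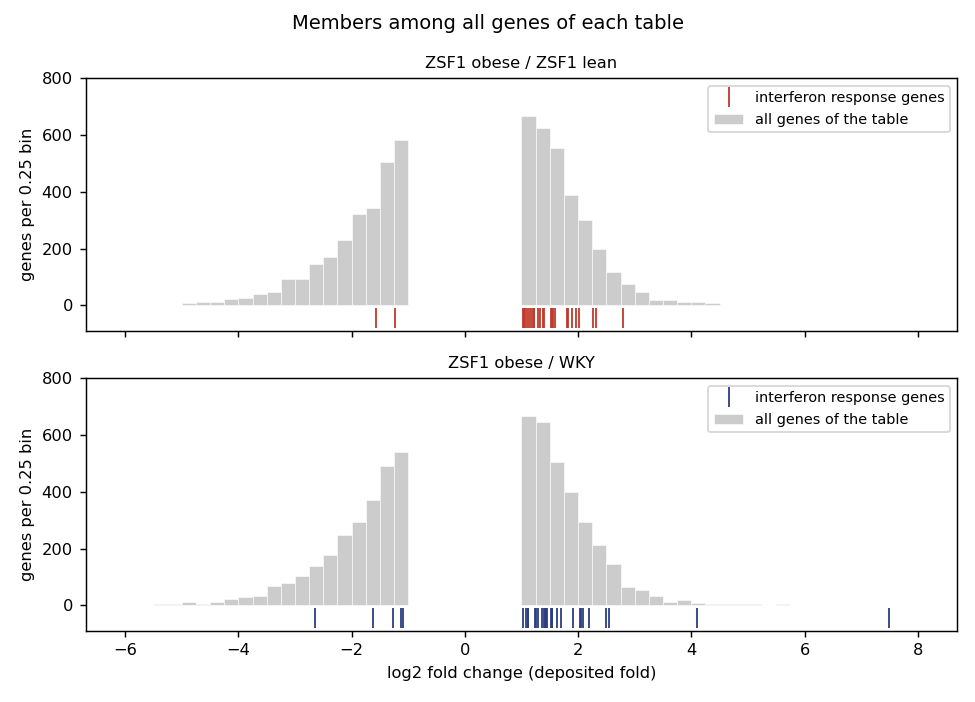
Grey bars count all genes of each table in bins of 0.25 of the log2 fold (upper panel ZSF1 obese over ZSF1 lean, 5700 genes; lower panel ZSF1 obese over WKY, 5709 genes), and vertical ticks under them mark the interferon response genes. Most ticks lie in the part of the right-hand bars nearest to the gap, and Ifit1 at 7.49 and Ubd at 4.10 stand far to the right in the lower panel.

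Set side by side, the obese folds over lean and over WKY were close for most genes. The comparisons share the obese rats, so this is arithmetic and no separate support. For the 25 genes in both authors' deposited tables the ratio of the fold over WKY to the fold over lean had a median of 0.993, and for 80% of them it lay within a factor of 1.5. Over all 4847 genes in both tables the median was 1 and the share was 85.9%. The 5 genes outside that band were Ubd (3.43), Ifitm10 (1.97) and Irf8 (1.60), which stood higher over WKY, and Gbp1 (0.472) and Ifi44l (0.210), which stood lower.

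The ratio equals the lean over WKY level where both obese folds are on 1 scale. For Gbp1 it was 0.472 beside a deposited lean fold of 0.48. For Ifi44l it was 0.210 beside a deposited 0.24, and for Ubd 3.43 beside a deposited 2.13. Among the 79 genes in all 3 authors' deposited tables the lean fold was closer to 1 than this ratio by over 5% in 68, so lean folds and obese folds may not be on the same scale. Ifit1 is not among these 79 genes. Its fold in lean against WKY hearts was 15.1 in the authors' deposited table (adjusted p = 1.33e-61, rank 2 of 233). In obese against WKY hearts its fold was 179.8 in the authors' deposited table, a ratio of 11.9 to the lean fold. Yet Ifit1 was not in the table of obese against lean hearts, and the reason was not tested. The size of the obese to lean difference for Ifit1 is therefore not known from these tables.

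**Figure D5:**
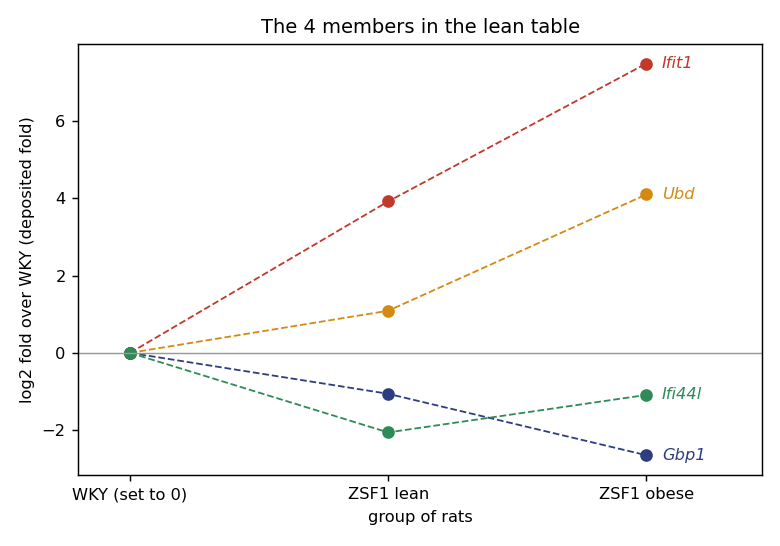
The 3 groups of rats are on the horizontal axis and the log2 of the deposited fold over WKY is on the vertical axis, with WKY set to 0; dashed lines join the points of 1 gene and there is no error bar because the tables hold none. Ifit1 and Ubd stand above WKY in lean and further above it in obese hearts, Gbp1 stands below and further below, and Ifi44l is lowest in lean hearts; lean and obese folds may differ in scale.

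Other genes of the pathway were taken as 84 symbols outside the choice above, of which 80 were found in the tables or in RefSeq. This list was chosen with earlier results of these data known, so its counts are no separate support. In each obese comparison 36 of these genes were in the authors' deposited table, 32 higher and 4 lower. The shares of all listed genes that rose were 53.4% against lean hearts and 54.0% against WKY. The shares of RefSeq protein-coding symbols that were listed were 22.8% and 22.9%. In lean against WKY none of these pathway genes was listed. Sensors and adaptors gave 9 rises and 2 falls against lean hearts and 8 and 2 against WKY. Sting1, the adaptor of cytosolic DNA sensing, had folds of 4.26 (adjusted p = 3.57e-50) and 4.82 (adjusted p = 2.32e-60), and Cgas, the enzyme that feeds it, had folds of 2.25 and 2.55, in the authors' deposited tables. Mavs, the mitochondrial adaptor of RNA sensing, fell to 0.346 of the lean level (adjusted p = 2.72e-33) and 0.237 of the WKY level (adjusted p = 4.09e-63) in the authors' deposited tables. Traf3, which acts after Mavs, stood at 0.351 (adjusted p = 6.34e-23) and 0.369 (adjusted p = 1.12e-20) in the authors' deposited tables. Sting1 and Cgas thus rose, and Mavs and Traf3 were the only 2 that fell among the sensors and adaptors. Ikbke, also of this group, rose with folds of 4.32 (adjusted p = 6.24e-21) and 2.79 against lean and WKY hearts in the authors' deposited tables. A difference between DNA and RNA sensing was not tested. The endosomal receptors Tlr7, Tlr8 and Tlr9 had folds of 3.73, 3.20 and 4.00 against lean hearts in the authors' deposited table.

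Among other effectors, Pnpt1, a mitochondrial RNA-degrading enzyme, fell to 0.412 of the lean level (adjusted p = 1.54e-80) and 0.398 of the WKY level (adjusted p = 1.60e-48) in the authors' deposited tables. Shisa5, with folds of 3.20 (adjusted p = 1.04e-51) and 3.27 (adjusted p = 9.55e-46), and Casp1, the inflammasome protease, with 3.25 (adjusted p = 1.05e-37) and 3.32 (adjusted p = 8.98e-33), rose in the authors' deposited tables. Casp4, a sensor of bacterial lipopolysaccharide, had a fold of 3.58 (adjusted p = 1.30e-30) against lean hearts in the authors' deposited table. Among chemokines of the receptor Cxcr3 the directions differed: Cxcl9 rose with a fold of 3.34 against lean hearts, while Cxcl11 fell to 0.154 of the lean level (adjusted p = 4.85e-22) and 0.099 of the WKY level (adjusted p = 2.20e-32) in the authors' deposited tables. Socs1, the feedback inhibitor of Janus kinases, had folds of 2.66 and 4.29 in the authors' deposited tables. Antigen processing genes gave 4 rises against lean and 5 against WKY hearts and no fall, among them the immunoproteasome subunit Psmb9 with folds of 2.85 and 3.03 in the authors' deposited tables.

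Markers of cell types also changed in the obese comparisons, and whether they moved with these genes from rat to rat is unknown here. Of 12 macrophage markers 10 rose against lean and 11 against WKY hearts, with median folds of 3.24 and 4.47, and 7 of 12 lymphocyte markers rose in each, in the authors' deposited tables. The medians of all genes that rose were 3.01 and 3.05, 53.4% and 54.0% of the listed genes rose, and the authors' deposited tables held 22.8% and 22.9% of RefSeq protein-coding symbols. Dendritic cell markers rose in 5 and 4 of 8 cases, natural killer cell markers in 2 and 3 of 7, endothelial markers in 10 and 10 of 12 and fibroblast markers in 7 and 10 of 12, with no fall in any of these lists. Of 12 cardiomyocyte markers 6 fell in each obese comparison, with median folds of 0.290 and 0.256 in the authors' deposited tables. Neutrophil markers rose in 6 of 8 cases against lean hearts and in 2 against WKY, and 3 of them were lower in lean than in WKY hearts. In whole ventricle a change in the number of cells of a type and a change in RNA per cell cannot be told apart, and the part of these markers in the interferon gene results was not tested.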

How the data were processed

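Left ventricular RNA of 18 male rats (WKY, ZSF1 Lean or ZSF1 Obese) was studied, 6 rats per group, through the authors' 3 deposited tables of changed genes. Per the submitters' processing notes, the build was Rnor_6.0 and the tools HISAT2 2.1.0, HTSeq 0.11.2 and DESeq2 1.22.2; settings, fold shrinkage and strand use are not stated there. Per the file headers, each row holds a linear fold (the first-named group's level over the other's, a ratio) and a false discovery rate (an adjusted p-value), both deposited by the authors and used unchanged. No value per rat was used, so no test was run here. The adjusted p, from 6 rats against 6, is a false discovery rate and gives no error or spread of a fold. Nothing states how the rats were batched. Genes near each other in sequence share reads and are uncertain. The log2 fold, counts, medians and fold ratios were computed with Python 3.11.15 and pandas 2.3.3. The symbol match and the motif search were tested on simulated data. RefSeq (GRCr8) gave symbols, gene order and promoters; the deposited build differs, so symbols alone link them. Fold and adjusted p are given for genes in the lean table, genes that fell, genes past a fold of 4 or below 0.25, and the 5 smallest adjusted p-values per table; of other pathway genes, the 6 smallest and all falls. Cgas, Ikbke, Tlr7, Tlr8, Tlr9, Cxcl9, Socs1 and Psmb9 fall outside that rule and were chosen after their values were seen. Some genes that the rule covers are counted here but not reported by name. Usp18 was left out by the choice of genes. Genes and lists were chosen with earlier results of these data known. Alternatives were other limits on fold and adjusted p, counts per symbol, Usp18, synonyms, and leaving out 4 genes.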

Additional observations from a re-analysis of the deposited data

How the results depend on the processing

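Of 24 alternative counts, 19 stayed within 1.5 times the count reported, and 5 moved, all under the limit that asks for a 4-fold change either way, which by construction keeps fewer genes. Under it the interferon response genes numbered 4 against lean hearts and 9 against WKY for obese rats, and 2 for lean rats against WKY, and the other pathway genes 8 and 9 in the obese comparisons. An adjusted p under 0.01 removed Zbp1 from the interferon response genes and Tap2 from the other pathway genes, both against WKY, which left 31 and 35. Counting per symbol or adding Usp18 changed no count. Usp18 was in no table, and no other pathway gene was in that of lean against WKY. Some of the 19 counts could therefore not move. Synonyms added Mnda to both obese tables and Creb3l1 to that against lean hearts, giving 30 and 33 genes. Creb3l1 was added by the letters of a synonym alone, so it should not be read as an interferon response gene. Leaving out rats needs values per rat and was not run. No paired analysis was possible because the tables hold no values per rat and the groups share no replicate numbers. Depth is unknown, so a gene in no table cannot be called unchanged.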

Other observations

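Some genes that the symbols do not catch have a synonym or a description that names interferon, and whether they belong to the same response was not tested. Mnda, for which RefSeq lists an Ifi name, rose with folds of 5.17 over lean hearts (adjusted p = 1.47e-08) and 5.54 over WKY (adjusted p = 2.49e-11) in the authors' deposited tables. A gene described as similar to an interferon-inducible GTPase, MGC108823, had a fold of 2.50 over lean hearts (adjusted p = 0.000322) in the authors' deposited table. Both were found after the values had been seen.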
